A study of Mus musculus with 5 samples.

Results

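Basement membrane genes encode the proteins of the thin sheet of matrix on which epithelia and early embryonic cells rest. The set was chosen by name, with earlier results of these data known. Its 10 genes include the collagen IV chains Col4a1 and Col4a2 and the laminin chains Lama1, Lama5, Lamb1 and Lamc1. The others are the nidogens Nid1 and Nid2, the matricellular glycoprotein gene Sparc and the perlecan gene Hspg2. By the symbols of the platform annotation, 9 of the 10 had a probe on the array and Lama5 had none under its name. These 9 had 10 probes among 25697, 1 each except Sparc with 2, and all 9 were among the 8828 genes tested.

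RNA came from 46C mouse embryonic stem cells, a line with a green fluorescent protein reporter in the neural gene Sox1, and was read on single-colour Illumina bead arrays. The ESC group (n = 2) was kept pluripotent on gelatin free of feeders and serum, in the defined medium N2B27 with LIF, BMP and the FGF receptor inhibitor PD173074 at 100 nM. The N2B27 48 hr group (n = 3) was the same line after trypsinization, washing and replating into N2B27 alone for 48 hr. By the labels these are a pluripotent state and one competent for differentiation signals, and the comparison asks how their transcripts differ. All samples are of 1 cell line, and the labels do not say whether replicates were separate cultures, so p-values cover only the spread among these 5 arrays, and that spread may be technical. The labels do not say how long the ESC cultures had been plated at harvest, so the change of medium and the time since replating cannot be told apart.

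A basement membrane is built from a laminin polymer and a collagen IV network. A laminin is a trimer of an alpha, a beta and a gamma chain, and it assembles at the cell surface on integrins and dystroglycan. Collagen IV, as a trimer of alpha1 and alpha2 chains, forms the covalent scaffold, and nidogens and perlecan link the networks. In the mouse blastocyst and in embryoid bodies this matrix is laid down mainly by the primitive endoderm, and the epiblast polarizes upon it.

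Between 42.1% and 47.5% of probes were detected on each array, detected meaning a detection p under 0.05. The mean signal ran from 187 on N2B27 48 hr replicate 1, the dimmest array, to 264 on ESC replicate 1. Across all probes after normalization, Pearson's r was 0.949 to 0.956 for arrays of different groups, 0.996 for the ESC pair and 0.991 to 0.994 among N2B27 48 hr arrays. The 6 embryonic stem cell markers on the list were detected on every array.

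Basement membrane transcripts were lower after 48 hr in N2B27. Among the 9 genes tested, 8 fell and 0 rose, and Lamb1 was not past the test (limma with Benjamini-Hochberg adjustment over all probes, threshold 0.05; 0 also rose at an unadjusted p under 0.05). Over all genes tested 21.4% were lower and 23.8% higher by the same rule, and the median log2 change was -2.06 for the 9 genes against 0.049 for all. Since the set was chosen with earlier results known, this contrast is a description and not a test. The falls ran from 2.98-fold for Nid2 to at least 14.1-fold for Nid1, and 6 of the 9 genes were at least 4-fold lower, as 2.23% of all genes were. In all 8 genes both ESC arrays lay above all 3 N2B27 48 hr arrays, an arrangement that 29.9% of all genes showed. Nid1 entered the test through the ESC arrays alone, since its probe was detected on 0 N2B27 48 hr arrays, while the other 7 that fell were detected on all 5. With detection required on all 5 arrays, which removed Nid1 and Lamb1, all 7 genes left fell (median -2.06), as 21.2% of all genes did. These are bulk samples, in which fewer cells that make a transcript and less of it per cell cannot be told apart.

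**Figure D1:**
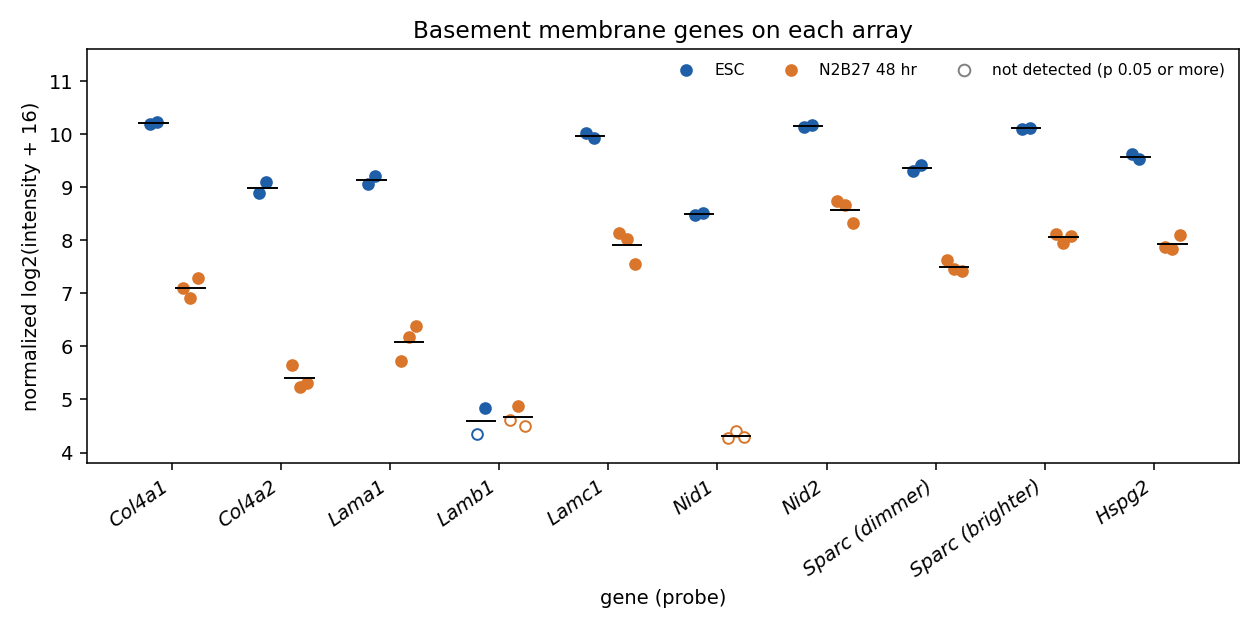
Normalized log2(intensity + 16) of each basement membrane probe (vertical axis) on each of the 2 ESC and 3 N2B27 48 hr arrays, with black lines at the group means and open circles where the probe was not detected. The groups are apart for every probe but that of Lamb1, and Nid1 lies at background on all 3 N2B27 48 hr arrays.

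Collagen IV genes were among the most strongly lowered of the set. The Col4a1 probe, for the alpha1 chain, had a signal of 1427 and 1299 on the ESC arrays and of 139.6, 162 and 213 on the N2B27 48 hr arrays. On the normalized log2 scale its level went from 10.22 ± 0.034 (SD, n = 2) to 7.10 ± 0.18 (SD, n = 3), a change of -3.12 ± 0.123 (SE) or 8.68-fold (limma adjusted p = 1.5e-08). The Col4a2 probe, for the alpha2 chain, had a signal of 617 on both ESC arrays and of 80.3, 79.0 and 84.3 on the N2B27 48 hr arrays. Its log2 change was -3.60 ± 0.156 (SE), or 12.1-fold lower (limma adjusted p = 3.0e-08), and was -2.71 without background correction and -4.21 with an offset of 1 in place of 16. Of 8828 genes tested, ordered from the largest fall, Col4a2 stood at place 32 and Col4a1 at place 55.

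The 2 genes lie head to head on chromosome 8 and share a promoter region. In the RefSeq promoter windows of the assembly GRCm38.p6, each 250 bases before to 50 after a gene's start, the starts of Col4a1 and Col4a2 are 21 bases apart and their windows overlap by 78 bases. The bases before the Col4a1 start (chr8:11312827-11313076, minus strand) are shown because both chains fell, those of Nid1 (chr13:13437352-13437601, plus strand) as the gene that fell out of detection, those of Hspg2 (chr4:137468553-137468802, plus strand) for a repeated motif and those of Sparc (chr11:55420081-55420330, minus strand) as a window without any motif searched. The Col4a1 bases also lie within the RefSeq extent of Col4a2, which begins at 11312805 on the plus strand, so they are at once upstream of one gene and part of the other. In the same annotation the widest extents of Col4a1 and Hspg2 begin at 11312889 and 137468751, before the starts used here, so some of their printed bases are within the gene itself. Sequences are from RefSeq, 5′ to 3′ on the strand of the gene, ending at the base before the start, and capitals mark GGGCGG, the GC box, and CCAAT, the CCAAT box, on either strand.
Col4a1: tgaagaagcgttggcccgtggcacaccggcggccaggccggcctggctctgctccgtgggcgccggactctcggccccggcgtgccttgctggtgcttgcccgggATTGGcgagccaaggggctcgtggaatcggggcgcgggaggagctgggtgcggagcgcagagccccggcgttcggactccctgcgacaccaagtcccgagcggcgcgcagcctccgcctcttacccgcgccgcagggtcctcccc
Nid1: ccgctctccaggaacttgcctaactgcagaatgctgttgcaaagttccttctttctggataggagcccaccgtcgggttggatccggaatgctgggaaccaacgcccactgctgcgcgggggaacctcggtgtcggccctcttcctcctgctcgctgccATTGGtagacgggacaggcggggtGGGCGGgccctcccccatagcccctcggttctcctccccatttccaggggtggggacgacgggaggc
Hspg2: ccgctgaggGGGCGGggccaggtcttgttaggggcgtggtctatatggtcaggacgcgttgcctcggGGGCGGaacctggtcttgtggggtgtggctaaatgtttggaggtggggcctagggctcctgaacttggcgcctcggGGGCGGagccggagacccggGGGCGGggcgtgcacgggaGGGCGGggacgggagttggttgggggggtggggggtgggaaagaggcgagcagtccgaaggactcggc
Sparc: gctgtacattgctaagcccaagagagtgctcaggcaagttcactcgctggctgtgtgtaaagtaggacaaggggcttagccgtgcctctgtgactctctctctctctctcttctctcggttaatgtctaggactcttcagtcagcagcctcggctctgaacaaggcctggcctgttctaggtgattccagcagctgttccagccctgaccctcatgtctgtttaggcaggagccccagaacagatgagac
Windows were found for 7 of the 10 genes, Lama5 and Lamb1 among them. GGGCGG on either strand occurred in 6 of these 7 windows and in 35.7% of all 32851 windows of 300 bases, and CCAAT in 4 of 7 and in 37.4% of all. The promoter element TATAAA was in 0 of 7 windows and in 13.6% of all. AGATAA, a motif of endodermal zinc finger factors, was in 0 of 7 windows and in 11.2% of all. The sequence AACAAT, a motif of SRY-box factors, was in 0 of 7 windows and in 10.7% of all. No motif searched overlaps another in the printed bases. Hspg2 has 5 copies of GGGCGG, and that of Col4a1 lies after its start, outside the bases printed. The Col4a1 match lies in the bases shared with the Col4a2 window and is also found there. The windows with GGGCGG are thus not all separate sites. The 7 windows had a median GC content of 70.3% against 52.7% for all windows. Both boxes were in the windows of Col4a1, Col4a2, Lamb1 and Nid1, and neither was in that of Sparc, which had the lowest GC content of the 7 (55.3%). A match is a run of letters, not a site shown to be bound.

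The difference in size between the collagen chains was not resolved. The within-array log2 difference, Col4a1 minus Col4a2, took values of 1.30 and 1.15 in ESC, and in N2B27 48 hr it took 1.45, 1.67 and 1.98, with no overlap of the groups. Its shift of 0.48 had an exact permutation p of 0.2 (two-sided, 10 arrangements of the 5 samples, adjusted p = 0.2 over the 2 pairs tested). With 10 arrangements the smallest p this permutation test can give is 0.1. It could therefore not pass the threshold used for the genes, whatever the values, and no conclusion is drawn from it. The other pair in the adjustment, Nid1 with Nid2, is not read. The shift was -0.069 without background correction, -0.0017 with an offset of 50 and -0.010 with the authors' normalized values, so its direction depends on how background is treated. Another planned pair, Lama1 with Lama5, could not be set up without a Lama5 probe.

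Laminin chains split by probe. Lama1, the alpha chain of laminin-111, had a signal of 680.2 and 667 on the ESC arrays and of 82.2, 114 and 133 on the N2B27 48 hr arrays. It fell by 3.04 ± 0.180 (SE) on the log2 scale, or 8.24-fold (limma adjusted p = 2.8e-07), and stood at place 60 of 8828. The change was -2.45 without background correction. Its N2B27 48 hr arrays were the most scattered of the set (SD 0.34, n = 3). Lamc1, the gamma1 chain common to most laminins, had a signal of 1256 and 1041 on the ESC arrays and of 244, 304 and 250.1 on the N2B27 48 hr arrays, and fell by 2.06 ± 0.156, or 4.18-fold (limma adjusted p = 1.9e-06). The 95% intervals of these changes, -3.44 to -2.65 for Lama1 and -2.41 to -1.72 for Lamc1, did not overlap.

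The Lamb1 probe, for the beta1 chain that joins both in laminin-111, gave almost no signal. It was detected on 1 of 2 ESC arrays and on 1 of 3 N2B27 48 hr arrays. Its signal was 58.6 and 73.5 in ESC and 63.4, 70.6 and 63.6 in N2B27 48 hr, and the groups overlapped. The log2 change of 0.072 ± 0.179 (limma adjusted p = 0.783) has a 95% interval of -0.32 to 0.47 at mean log2 levels near the lowest detected values of the arrays (4.59 to 4.75). With the probe at background in both groups, neither the presence of the beta1 chain transcript nor a change in it could be read from these arrays.

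**Figure D2:**
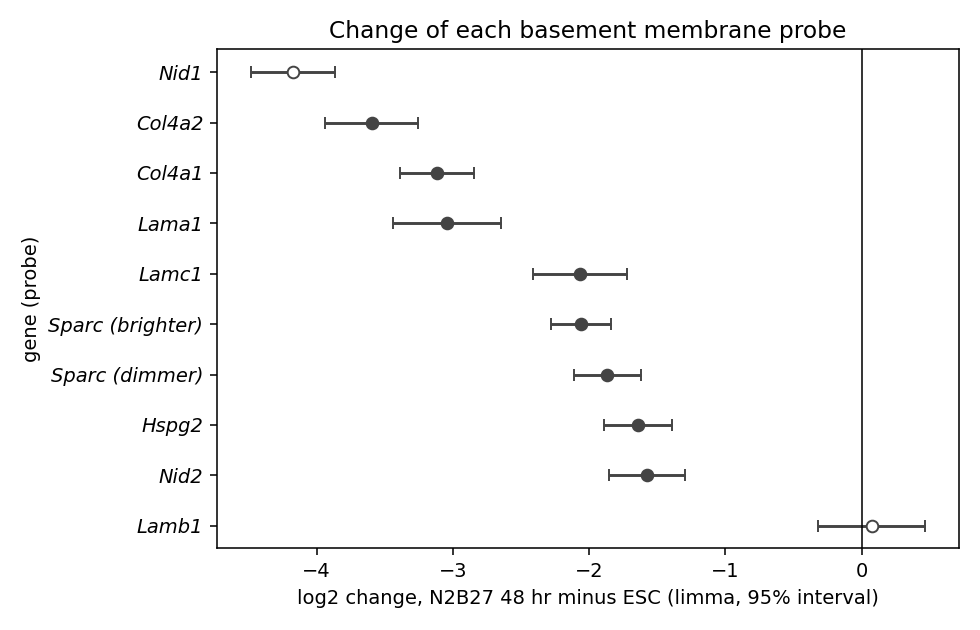
Log2 change (N2B27 48 hr minus ESC, horizontal axis) of each basement membrane probe with its 95% interval from limma, ordered by size, with open circles for probes not detected on every N2B27 48 hr array. The point of Nid1, at -4.17, is a fitted value against arrays at background, for which the text gives a bound of at least 14.1-fold. The changes of the other genes that fell run from -3.60 for Col4a2 to -1.58 for Nid2, and the interval of Lamb1 alone includes 0.

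Nidogens and perlecan, the linkers of the network, fell as well, and Nid1 fell out of detection. Nid1, nidogen-1 or entactin, had a signal of 470.02 and 432 on the ESC arrays and of 54.5, 60.0 and 56.6 on the N2B27 48 hr arrays, all 3 at background (detection p of 0.685, 0.296 and 0.586). It was at least 14.1-fold lower, the bound being set against the lowest detected value of each array. Its limma adjusted p of 5.6e-09 is not read as support. The probe entered the test through the ESC arrays alone, and its N2B27 48 hr values are background. Its place among all genes is not given, since the fitted change depends on the value of a probe at background. Nid2, nidogen-2, had a signal of 1369 and 1229 in ESC and of 341, 455 and 397 in N2B27 48 hr. It fell by 1.58 ± 0.126, or 2.98-fold (limma adjusted p = 3.0e-06), and stayed detected on all arrays. The within-array log2 difference, Nid1 minus Nid2, was -1.66 and -1.67 in ESC. It has no measured value in N2B27 48 hr, where Nid1 was at background, so the planned test of this pair is not read.

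Hspg2, the core protein of the heparan sulfate proteoglycan perlecan, had a signal of 967 and 807 in ESC and of 211, 273 and 344 in N2B27 48 hr. It fell by 1.64 ± 0.112, or 3.12-fold (limma adjusted p = 8.5e-07). Sparc, a collagen-binding glycoprotein also called osteonectin, was read by 2 probes that moved alike. The brighter had a signal of 1343 and 1187 on the ESC arrays and of 241, 290.5 and 343 on the N2B27 48 hr arrays, and fell by 2.06 ± 0.0992, or 4.16-fold (limma adjusted p = 6.1e-08). The dimmer had a signal of 797 and 753 in ESC and of 184, 217 and 229 in N2B27 48 hr, and fell by 1.87 ± 0.112, or 3.64-fold. Lamc1, Sparc, Hspg2 and Nid2 stood at places 189, 191, 285 and 308 of 8828. The 95% intervals separated them from the deeper falls of Col4a1, Col4a2 and Lama1, since the nearest bounds were -2.41 for Lamc1 and -2.65 for Lama1. Folds are on the log2(value + 16) scale and understate the change of dim probes, so the order within either group is less firm than the gap.

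**Figure D3:**
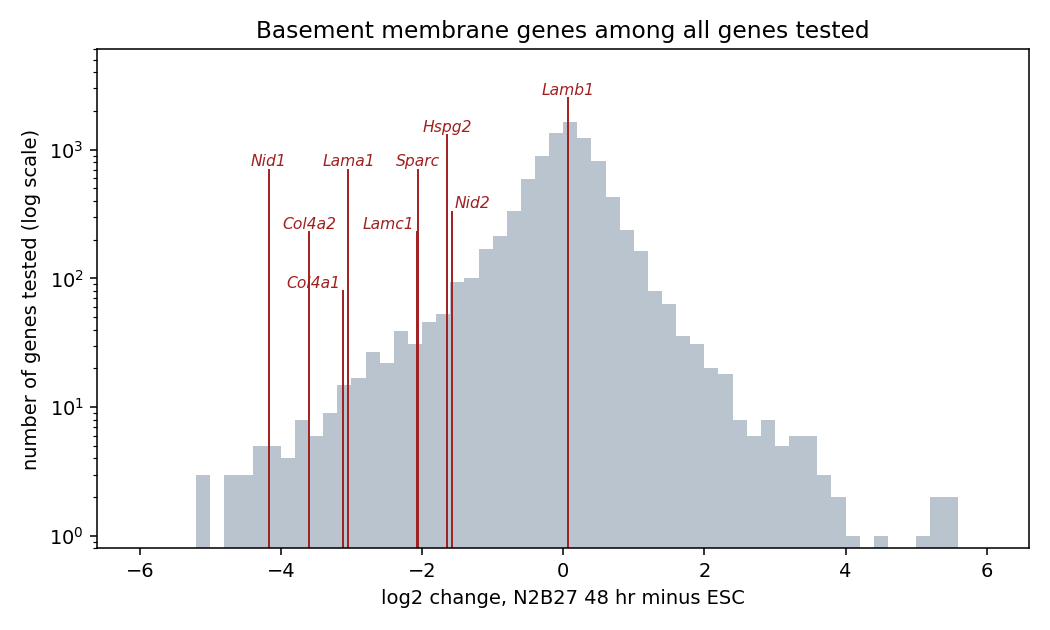
Number of genes (vertical axis, log scale) by log2 change between N2B27 48 hr and ESC (horizontal axis) for all 8828 genes tested, with the 9 basement membrane genes marked by red lines. Of the 9, 8 lie in the lower tail and Lamb1 lies at the centre.

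Among the N2B27 48 hr arrays no replicate was lowest throughout. By the 9 probes that fell, replicate 1 was lowest for 2, replicate 2 for 4 and replicate 3 for 3. The 2 for replicate 1 include the Nid1 probe, whose order is among values at background. Replicate 3 was highest for Col4a1, Lama1 and Hspg2 and lowest for Lamc1, Nid2 and the dimmer Sparc probe. For 114 other genes at least 4-fold lower and detected on all arrays, filters not put on the 9 probes, replicate 3 was lowest in 62.3%. Likeness to the profile of Col4a1 over the 5 arrays was measured by the Euclidean distance between log2 values centred on each gene's mean, a measure that also reflects the size of the change. The nearest among genes outside the set were Ccl25, Dpysl4, Cabs1, Fcgrt and Zscan4c (0.119 to 0.340). Lama1 lay at 0.490 and Col4a2 at 0.651, with 23 and 46 of 8819 other genes nearer. For Sparc, Nid1, Lamc1, Hspg2 and Nid2 the numbers of nearer genes were 145, 151, 178, 255 and 302, and for Lamb1 4844. Of the 5 nearest genes, Cabs1, Fcgrt and Zscan4c were detected on 0 N2B27 48 hr arrays, so part of this likeness is between Col4a1 and probes at background.

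Other basement membrane components were mostly undetected, and those measured that passed the test were lower. Of 25 with a probe, 17 were detected on 0 arrays, among them the collagen chains Col4a3 to Col4a6 and the laminin chains Lama2, Lama4, Lamb3 and Lamc3. Of 6 tested, 4 fell (66.7%, against 21.4% of all genes tested) and 0 rose, also at an unadjusted p under 0.05 (median log2 change -0.70). Agrn, the proteoglycan agrin, was 2.66-fold lower (-1.41 ± 0.0834, limma adjusted p = 2.8e-07). Lamb2, the beta2 chain that can stand in place of beta1 in laminins, was 2.40-fold lower (-1.26 ± 0.156, limma adjusted p = 7.8e-05) and was detected on all 5 arrays. Smoc1, a SPARC-related modular protein, was 2.04-fold lower. The fibulin gene Fbln1 had a smaller change (-0.37, limma adjusted p = 0.0341), which did not pass by its other probe (adjusted p = 0.447). Col18a1, the source of endostatin, had changes of -0.079, -0.077 and 0.31 by its 3 probes and passed by none of them (limma adjusted p = 0.471, 0.735 and 0.123), and was detected on every array. A probe at background does not show that a transcript is absent, since the probe of Rpsa, which encodes a ribosomal protein of every cell that is also known as a laminin receptor, was detected on 0 arrays as well.

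Several enzymes that modify collagen chains in the endoplasmic reticulum were lower. Of 26 genes for folding, modification and export with a probe, 10 were detected on 0 arrays, among them P4ha1, Plod1 and Serpinh1. Of the 15 tested, 5 fell (33.3%, against 21.4% of all genes tested) and 0 rose (1 rose at an unadjusted p under 0.05), with a median of -0.13. Colgalt1, which glycosylates hydroxylysine, was 2.48-fold lower (-1.31 ± 0.108, limma adjusted p = 3.6e-06). Plod2, a lysyl hydroxylase, was 2.21-fold lower (-1.15 ± 0.121). P3h1, a prolyl 3-hydroxylase, was 2.16-fold lower by its brightest probe, and its other 2 probes also fell. Crtap, its partner in the same complex, was 2.07-fold lower (-1.05 ± 0.101), and the COPII coat gene Sec23a changed by -0.44 (limma adjusted p = 0.0257). Crtap, Sec23a and Fbln1 were named after their values were seen. P4hb, the protein disulfide isomerase subunit of prolyl 4-hydroxylase, had a change of 0.0031 ± 0.073, and Plod3 one of -0.13 ± 0.106, neither past the test.

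**Figure D4:**
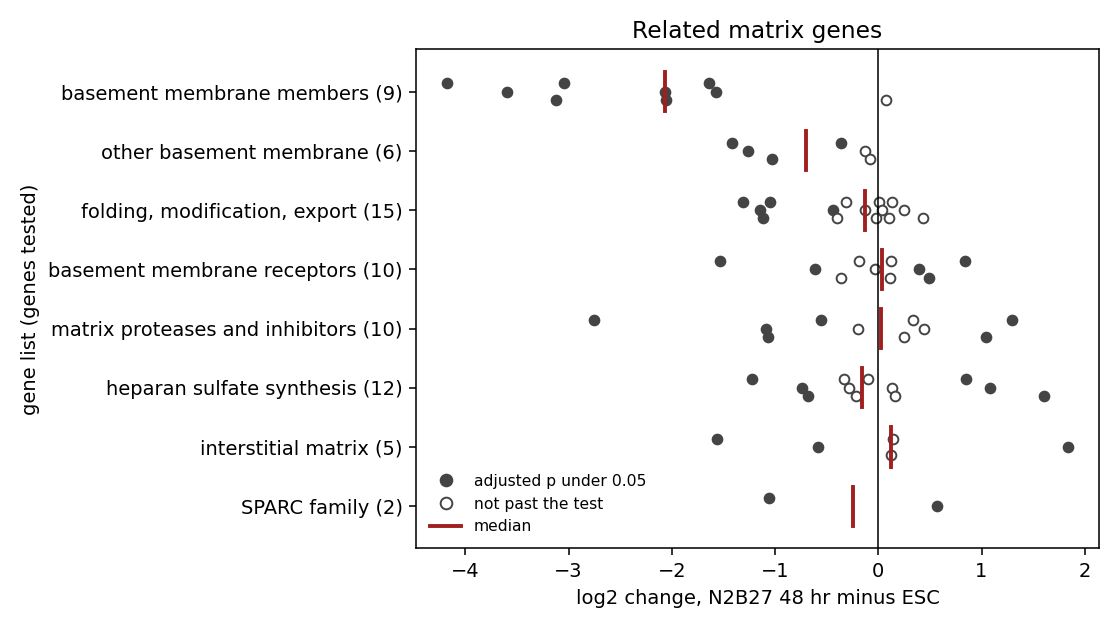
Log2 change between N2B27 48 hr and ESC (horizontal axis) of each tested gene of the basement membrane set and of 7 related lists, with filled circles for an adjusted p under 0.05 and red lines at the medians. The basement membrane genes have a median of -2.06, and the medians of the other lists lie between -0.70 and 0.12.

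Receptors of the basement membrane changed at about the rate of all genes. Among the 10 tested, 3 rose (30%, against 23.8% of all genes tested) and 2 fell (20%, against 21.4%), with a median of 0.040. Of these, Ddr2 was detected on ESC arrays alone and Sdc1 on N2B27 48 hr arrays alone, so each entered the test through the group where it was higher. Itgb4, the integrin beta4 subunit of the laminin receptor of hemidesmosomes, was at least 2.89-fold lower (limma adjusted p = 1.1e-05) and fell by its other probe at least 1.36-fold. Ddr2, a collagen receptor kinase, was at least 1.19-fold lower, and Ddr1, the related kinase that binds collagen IV, was 1.79-fold higher (0.84 ± 0.181, limma adjusted p = 0.00328). Ddr1 did not pass under median scaling (adjusted p = 0.0509) or when ESC replicate 2 was left out (0.0643). Itga3 and Sdc1 were higher with limma adjusted p of 0.0488 and 0.0496, each lost in 8 of the alternatives. The main laminin-binding integrin chains Itga6 (-0.036 ± 0.149) and Itgb1 (0.12 ± 0.145) did not pass, nor did the dystroglycan gene Dag1 by its brighter probe (-0.36, adjusted p = 0.0654), although its other probe did (-0.44, adjusted p = 0.0278).

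Of 10 proteases and inhibitors tested, 4 fell (40%, against 21.4% of all genes tested) and 2 rose (20%, against 23.8%), with a median of 0.024. Htra1, a secreted serine protease, was 6.74-fold lower (-2.75 ± 0.136, limma adjusted p = 7.3e-08), and its other probe was at least 8.65-fold lower. The metalloproteinase inhibitor gene Timp1 was 2.13-fold lower and the cathepsin gene Ctsl at least 1.76-fold lower. Reck, a membrane inhibitor named after its value was seen, changed by -0.56 (limma adjusted p = 0.0326). Mmp2, the gelatinase that cleaves collagen IV, was 2.46-fold higher (1.30 ± 0.155, limma adjusted p = 6.2e-05) and Timp3, a matrix-bound inhibitor, was 2.05-fold higher.

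Among 12 tested genes of heparan sulfate synthesis, the side chain that perlecan and agrin carry, 3 fell and 3 rose (25% each, against 21.4% lower and 23.8% higher of all genes tested), so the counts were near the general share (median -0.16). The sulfotransferase genes Hs6st1 and Hs3st1 were 2.34-fold and 1.60-fold lower and the polymerase gene Ext2 1.66-fold lower. The extracellular sulfatase gene Sulf1 was 3.04-fold higher (1.61 ± 0.145, limma adjusted p = 7.2e-06), Extl2 2.11-fold higher and the polymerase gene Ext1 1.80-fold higher. Hs3st1 did not pass when ESC replicate 1 was left out (adjusted p = 0.0645), nor Ext1 under median scaling (0.0879). Interstitial matrix was little represented, with 10 of 17 genes detected on 0 arrays and 5 tested (median 0.12). Of these 5, the von Willebrand factor gene Vwf (at least 2.61-fold) and Col5a1 (log2 change -0.58) fell. Dcn, the proteoglycan decorin, rose at least 2.84-fold. The shares were 40% lower and 20% higher, against 21.4% and 23.8% of all genes tested. Vwf was kept as listed, although it is not particular to interstitial matrix. Dcn was detected on 0 ESC arrays and entered the test through N2B27 48 hr alone. The bound of 2.84-fold is that of its brighter probe, and the other Dcn probe rose at least 1.21-fold. The fall of Col5a1 did not pass without ESC replicate 2 (adjusted p = 0.0976). Of the 2 SPARC relatives tested, Fstl1 was 2.09-fold lower and Spock2 1.49-fold higher (50% each, against 21.4% lower and 23.8% higher of all genes tested). Spock2 did not pass under median scaling (limma adjusted p = 0.0753). It did not pass without ESC replicate 1 or 2 either (log2 change 0.50 and 0.61).

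The primitive and parietal endoderm makes this matrix in the embryo. Of 13 of its markers with a probe, 7 were detected on 0 arrays, namely the transcription factor genes Gata4, Gata6, Sox17 and Foxa2, the receptor gene Pdgfra, and Afp and Thbd. Of 6 tested (median 0.031), Amn was lower (-0.56 ± 0.158, limma adjusted p = 0.0148) and the adaptor gene Dab2 higher (0.93 ± 0.203, limma adjusted p = 0.00358). These are 16.7% each way, against 21.4% lower and 23.8% higher of all genes tested. Sox7, Ttr, Hnf4a and Lrp2 did not pass. The transcription factor gene Sox7 was detected on 2 ESC arrays and on 0 N2B27 48 hr arrays (-0.20 ± 0.133, limma adjusted p = 0.247), so it entered the test through ESC alone. Amn did not pass when N2B27 48 hr replicate 2 (adjusted p = 0.0514), ESC replicate 1 (0.151) or ESC replicate 2 (0.0678) was left out, and Dab2 when ESC replicate 2 was (0.0528). The summed normalized intensity of the 13 genes was 105 to 126 in ESC and 117 to 135 in N2B27 48 hr. Since 7 of the 13 were detected on 0 arrays, this sum includes probes at background and could show little of a change in these cells. Of 5 endothelial markers Cdh5, Tie1 and Emcn were detected on 0 arrays. Of the 2 tested, Tek was 2.22-fold lower (limma adjusted p = 2.6e-05). Kdr, detected on 1 ESC and 2 N2B27 48 hr arrays, did not pass (0.15 ± 0.140, limma adjusted p = 0.422). The shares were 50% lower and 0% higher, against 21.4% and 23.8% of all genes tested. The summed intensity of the 5 was 207 to 217 in ESC and 96.5 to 107 in N2B27 48 hr. Of 8 fibroblast markers 5, including Col1a1, Col1a2 and Col3a1, were detected on 0 arrays. The 2 tested, Thy1 and Dcn, were higher (100%, against 23.8% of all genes tested). The summed intensity of the 8 was 62.3 to 68.5 in ESC and 283 to 323 in N2B27 48 hr. The part of the endothelial and fibroblast markers in the results was not tested. Of the 6 embryonic stem cell markers, Nanog, Esrrb, Zfp42, Sox2 and Pou5f1 were lower and Utf1 higher. The shares were 83.3% lower and 16.7% higher, against 21.4% and 23.8% of all genes tested. The fall of Pou5f1 was lost under median scaling (limma adjusted p = 0.0613).

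**Figure D5:**
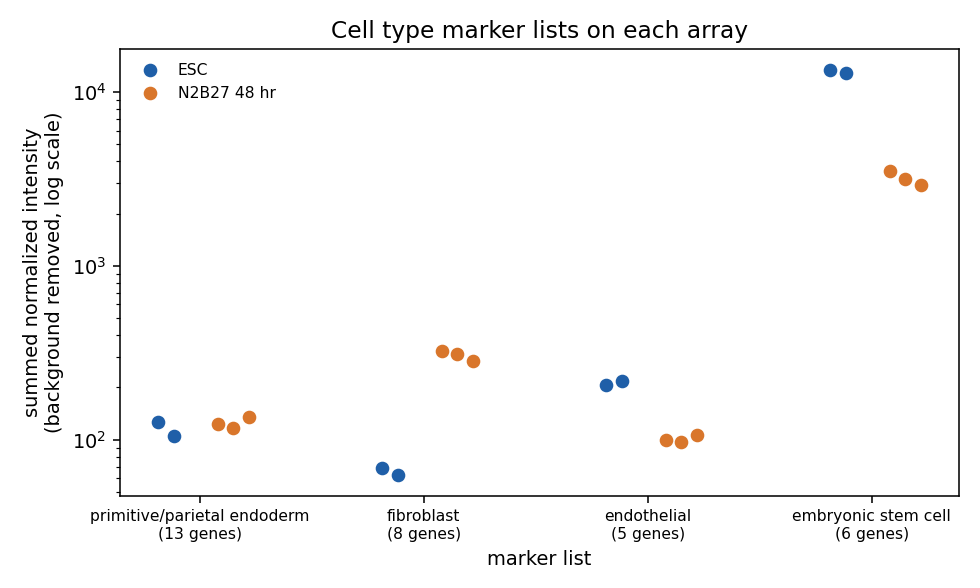
Summed normalized intensity with background removed (vertical axis, log scale) of each cell type marker list on each of the 2 ESC and 3 N2B27 48 hr arrays. The endoderm sums of the groups overlap, between 105 and 135, while the endothelial and stem cell sums are lower and the fibroblast sums higher in N2B27 48 hr. Of the genes summed, 7 of 13 endoderm, 3 of 5 endothelial and 5 of 8 fibroblast markers were detected on 0 arrays. These 3 sums thus rest on few genes and include probes at background.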

How the data were processed

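Total RNA was made into biotinylated cRNA, per the labels' protocols. The deposited signal intensity is a linear average over beads, not normalized, with a detection p-value for each probe, per the file headers. BeadStudio was used, per the submitters' processing notes, with no version given there. The lowest signals were 38.5 to 40.7, so background was still present. The other deposited table gives intensity values the authors had normalized. Its arrays share 1 distribution.

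Background was corrected in limma 3.58.1 (R 4.3.3) with nec, from the detection p-values, with an offset of 16, then log2 and quantile normalization. Probes with a detection p under 0.05 on at least 2 of 5 arrays (12605) were tested with lmFit and eBayes with trend, two-sided, adjusted by Benjamini-Hochberg. The files name neither chips nor scan dates, so no batch was tested. The number of arrays limits the precision.

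Genes were named from the platform annotation (23978 of 25697 probes with 1 symbol, 0 with several), updated through Entrez identifiers in a RefSeq table of GRCm38.p6 (23962 matched), and represented by their brightest tested probe. Where a probe was undetected on any array of the lower group, the fold is a bound against the higher of its value and the lowest detected value of each array. Named were all members, up to 3 changes each way per related list, markers, and the 5 genes nearest to Col4a1. The members and lists were chosen with earlier results of these data known. The fit was tested on simulated data. Alternatives were other backgrounds, offsets, scalings, filters and variance models, arrays left out, the replicate number as a block and the dimmest probe. Figures were drawn with matplotlib 3.10.9.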

Additional observations from a re-analysis of the deposited data

How the results depend on the processing

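All 19 alternatives were run. The 8 falls kept their direction and their side of the threshold in every alternative in which the gene was tested. Detection on all 5 arrays (7 fell of 7 tested) removed Nid1 and Lamb1, and leaving out either ESC array removed Nid1. Members that fell numbered 7 to 8 and members that rose 0 when 1 array was left out. The members' median (-2.06) was -2.27 under median scaling, -1.86 with the authors' normalized values and -2.56 to -2.05 when 1 array was left out, the lowest being without N2B27 48 hr replicate 2, which removed Lamb1 from the test. The fitted log2 change of Nid1 ran from -6.13 to -2.81 over the alternatives, since its N2B27 48 hr values lie at background, that of Col4a2 from -4.21 (offset of 1) to -2.71 (no background correction), that of Col4a1 from -3.35 to -2.74 and that of Lama1 from -3.38 to -2.45. The Col4a1 minus Col4a2 shift reversed without background correction (-0.069), with an offset of 50 (-0.0017) and with the authors' normalized values (-0.010), and was 0.33 to 0.65 when 1 array was left out. These settings leave background in the values or add to it. Over all genes 1889 fell and 2100 rose. Median scaling moved the median of all genes from 0.049 to -0.11, left 760 genes that rose and made the share of risers among changed genes 29.7% in place of 52.6%. When 1 array was left out, 1068 to 2005 genes fell and 1272 to 2229 rose, the lowest without ESC replicate 2 and nearly as low without ESC replicate 1 (1078 and 1327). A lone ESC array was taken to vary as the N2B27 48 hr arrays do, and genes detected on ESC arrays alone could not pass the filter. Counts in the related lists moved by over 1.5 times in some alternatives, with 0 to 3 receptors falling and 0 to 3 rising, 0 to 1 folding genes and 0 to 1 SPARC relatives rising, and 1 to 2 interstitial genes falling and 0 to 1 rising. Small changes were lost most often, that of Fbln1 in 8 of 19 alternatives (highest adjusted p = 0.447), Reck in 5 (0.155) and Sec23a in 4 (0.196). With the replicate number as a block, 8 members fell and 0 rose (median -2.08), and 2024 and 2330 of all genes. Same-numbered arrays of the groups did not deviate together (correlations of -0.085 and -0.028). With 2 ESC arrays the deviations of one mirror those of the other, so these values cannot settle whether replicates were paired. The labels do not say whether the numbers pair the samples. Signal over background limits what Lamb1 and Nid1 can show.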
